A study of Mus musculus with 6 samples.

Results

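The enzymes of glycolysis, the pentose phosphate pathway and the tricarboxylic acid (TCA) cycle, with the enzymes that feed carbon and glutamine into the cycle or draw from it, were examined in mouse Th17 cells with and without the RORγtN275D mutation. The group held 46 genes, chosen by symbol from textbook pathway membership out of 16244 genes in the table. By pathway these were 19 genes of glycolysis, 7 of the pentose phosphate pathway, 14 of the TCA cycle and 6 of its entry and exit routes. All 46 were in the table, and 45 passed the minimum mean of 10 normalized reads over the 6 libraries that testing required. *Hk3* did not.

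RNA was sequenced from 3 libraries labelled WT and 3 labelled Mut, the latter being RORγtN275D, all from spleen Th17 cells. RORγt is the transcription factor that defines the Th17 lineage, and N275D is a knock-in point mutation in its gene made on a C57BL/6 background with C57BL/6 WT controls. Per the study's methods, naive CD4+ T cells from mice of 6 to 12 weeks, both sexes included, were activated through CD3 and CD28 and cultured for 3 days under pathogenic Th17 conditions with IL-6, IL-1β and IL-23. The sources used here do not settle whether TGF-β was also present, do not give the copies of the mutant allele carried by these cells, and do not state that replicates were separate animals or cultures, so the p-values measure the spread between these libraries. A point mutation does not show in gene totals, so the genotype labels could not be checked from these data.

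Glycolysis splits glucose to pyruvate in the cytosol, and lactate dehydrogenase turns pyruvate to lactate. The pentose phosphate pathway branches off at glucose 6-phosphate and yields NADPH and ribose, while the TCA cycle oxidizes acetyl-CoA in mitochondria and also supplies citrate and aspartate to the cytosol. Activated T cells, Th17 cells among them, are known for running glycolysis at a high rate, and HIF-1α is a known activator of many of its genes. Several steps are carried out by isozymes, the products of separate genes that differ in kinetics, regulation or cell compartment.

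Reads assigned to genes lay between 17905693 and 18510878 in WT and between 17659035 and 17888463 in RORγtN275D, and values below are normalized reads, that is, those reads scaled by the authors with 1 factor per library. Fold changes are RORγtN275D over WT on the log2(normalized reads + 1) scale, with their standard error (SE). Of all 11908 genes tested, 50.9% were called at an adjusted p under 0.05 by limma, 24.7% higher and 26.1% lower in RORγtN275D, so a call in itself was common here. WT replicate 3 stood farthest from its group. The summed level of 7 Th17 and CD4 T cell markers was 73274 to 77254 normalized reads in WT and 85075 to 85816 in RORγtN275D. Markers of other cells were far lower, and none of those in the table had a mean of 0. The 4 CD8 T and natural killer cell markers in the table summed to 182 to 195 in WT and 251 to 281 in RORγtN275D, and the 5 B cell markers to 150 to 160 and 214 to 273, while the 5 myeloid markers overlapped at 46.4 to 52.5 and 43.1 to 56.9. Their part in the results below was not tested. In bulk RNA, a change in the share of cells that express a gene and a change in its RNA per cell cannot be told apart.

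Of the 45 enzyme genes tested, 17 were higher and 15 lower in RORγtN275D, and 13 were not called. The called share of 71.1% compares with 50.9% of all genes. The size of the changes was nevertheless alike, with a median absolute log2 fold change of 0.182 for the 45 genes and 0.186 for all genes tested. For the 18 genes of glycolysis it was 0.234. The directions differed by pathway. In glycolysis 13 of 18 genes tested rose and 3 fell, in the pentose phosphate pathway 1 of 7 rose and 3 fell, in the TCA cycle 1 of 14 rose and 7 fell, and among the entry and exit enzymes 2 of 6 rose and 2 fell. The called shares were 88.9%, 57.1%, 57.1% and 66.7%, so those of the pentose phosphate and TCA genes were close to the share of all genes. The median log2 fold change was 0.19 for glycolysis, -0.11 for the pentose phosphate pathway, -0.125 for the TCA cycle, 0.01 for entry and exit, -0.02 over the 45 genes and -0.00259 over all genes tested. The changes were small. Only 5 of the 45 genes were called at least 1.2-fold higher and 5 at least 1.2-fold lower, against 17.0% and 13.0% of all genes (29.9% in either direction). None reached 2-fold (0 of 45 by limma, by edgeR and by DESeq2, with 33 of 45 at an unadjusted p under 0.05 in limma, where all genes had 56.4%), against 3.59% of all genes by limma. The libraries of both genotypes did not overlap in 18 genes that were higher and 16 that were lower, against 28.1% and 29.6% of all genes. Without WT replicate 3, 18 of the 45 genes were called higher and 17 lower.

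**Figure D1:**
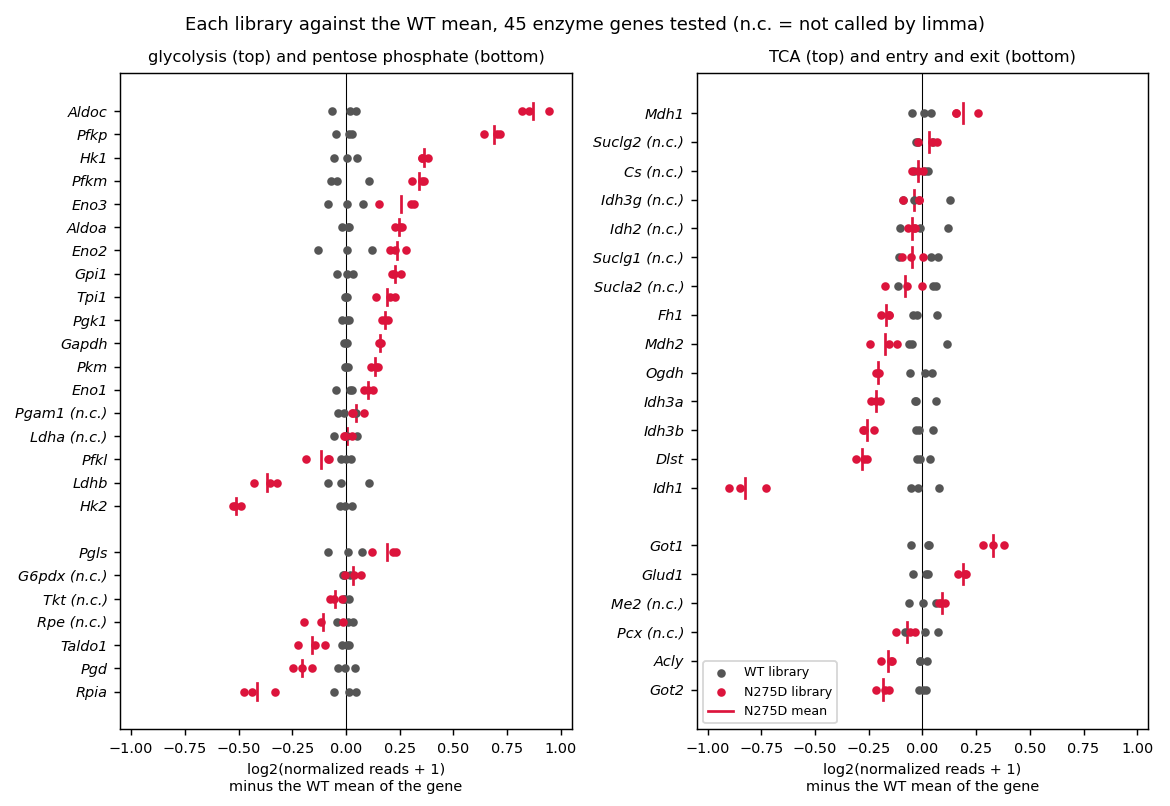
Each point is 1 library, placed by its log2(normalized reads + 1) minus the WT mean of that gene (x axis), for the 45 genes tested (y axis, by pathway group and ordered by the change), with grey points for WT, red points for RORγtN275D and a red tick at the RORγtN275D mean. Most glycolytic genes have their red points to the right of 0, up to *Aldoc* at 0.87, while *Hk2* (-0.51), *Ldhb* (-0.37) and *Idh1* (-0.83) lie to the left of it.

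Glycolytic transcripts were by far the most abundant of the group. Together the 19 genes held 3.26%, 3.29% and 3.26% of normalized reads in the 3 WT libraries and 3.70%, 3.64% and 3.65% in the 3 RORγtN275D libraries. Every mutant library thus lay above every WT library, with means of 3.27% ± 0.0197 and 3.67% ± 0.0297 (SD, n = 3 each). The share of the pentose phosphate genes went from 0.146% ± 0.00164 to 0.140% ± 0.00236 and that of the TCA genes from 0.236% ± 0.00449 to 0.221% ± 0.00228. For entry and exit the mean share was 0.192% in both. Per kilobase of exon, *Gapdh* was the highest of the 46 genes at 112021.5 ± 506 in WT and 124901 ± 453.5 in RORγtN275D normalized reads. *Ldha*, *Eno1* and *Pkm* followed at 42601 ± 1529, 38940.4 ± 1121 and 38186 ± 184 in WT, where *Eno1* and *Pkm* differed by less than the SD of *Eno1*, and *Hk3* was the lowest at 1.88 ± 0.425 in WT and 1.29 ± 0.454 in RORγtN275D. With the exons of every transcript, *Gapdh*, *Ldha* and *Hk3* kept these places, at 40521, 24389 and 1.72 in WT, while *Eno1* at 14674 came after *Pkm* at 19845 and *Pgk1* at 19613.

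**Figure D2:**
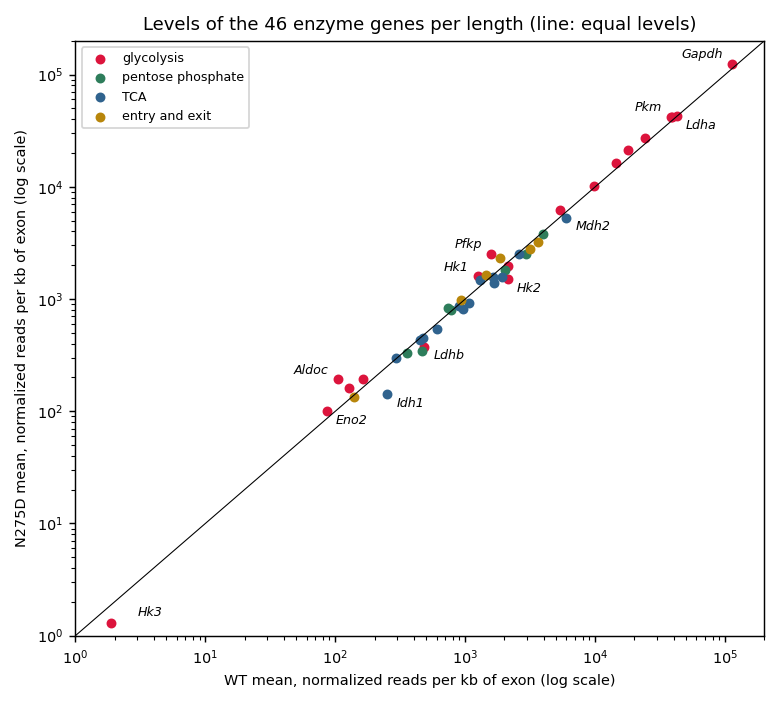
The mean level of each of the 46 genes in WT (x axis) and in RORγtN275D (y axis), both as normalized reads per kilobase of exon on log scales, with 1 point per gene coloured by pathway group and a line where both genotypes are equal. Levels span from *Hk3* at 1.88 to *Gapdh* at 112022 in WT, and most genes lie close to the line, with *Aldoc* and *Pfkp* above it and *Idh1*, *Hk2* and *Ldhb* below.

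Glycolysis begins with hexokinase, which phosphorylates glucose, and here its transcripts moved in opposite directions. *Hk1* (gene ID 15275, chr10:62268855-62379920 in GRCm38.p6), the broadly expressed form, had 5541, 5773 and 5956 normalized reads in WT and 7356.5, 7504 and 7360.4 in RORγtN275D. The mutant libraries were all higher than the WT libraries and lay close together, and the log2 fold change was 0.36 (SE 0.04, adjusted p = 5.99e-07 from limma). *Hk2* (gene ID 15277, chr6:82725025-82774454), the inducible form that is prominent in activated T cells and tumours, had 11719, 11524 and 11977 normalized reads in WT and 8154, 8361 and 8215 in RORγtN275D. Each mutant library was far below each WT library, and the log2 fold change was -0.51 (SE 0.03, adjusted p = 3.38e-09 from limma), the largest fall in glycolysis. *Hk3*, the form typical of myeloid cells, was scarce, with 6.06, 5.04 and 7.86 normalized reads in WT and 5.99, 3.01 and 3.95 in RORγtN275D, and the libraries overlapped.

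The next committed step, the phosphorylation of fructose 6-phosphate by phosphofructokinase, showed the same kind of divergence. *Pfkp* (gene ID 56421, chr13:6579874-6649060), the platelet-type gene, had 6892, 6824 and 6546 normalized reads in WT and 10553, 11114.5 and 10991 in RORγtN275D. All mutant libraries exceeded all WT libraries by many times the spread within a genotype, a 1.61-fold difference with a log2 fold change of 0.69 (SE 0.04, adjusted p = 2.35e-10 from limma). *Pfkl* (gene ID 18641, chr10:77986947-78009807), the liver-type gene, had 7779, 7883 and 8018 normalized reads in WT and 7450.3, 7474 and 6946 in RORγtN275D. The genotypes did not overlap, but RORγtN275D replicate 3 lay well below the other mutant libraries, and the log2 fold change of -0.12 (SE 0.04, adjusted p = 0.016 from limma) was lost without that library (adjusted p = 0.114 from limma). *Pfkm*, the muscle-type gene and the scarcest of the family, had 370.4, 363 and 411 normalized reads in WT and 471, 487 and 489.8 in RORγtN275D. It was higher in each mutant library, with a log2 fold change of 0.34 (SE 0.07, adjusted p = 4.37e-04 from limma).

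Aldolase splits fructose 1,6-bisphosphate. *Aldoc* (gene ID 11676, chr11:78323073-78327781), the aldolase best known from brain, rose most of the 45 genes. It had 298, 316 and 321 normalized reads in WT and 562, 549.8 and 600.4 in RORγtN275D. The mutant libraries were all far above the WT libraries, a 1.83-fold difference with a log2 fold change of 0.87 (SE 0.06, adjusted p = 1.86e-08 from limma). Its abundant partner *Aldoa* had 32657.5, 32035 and 32767 normalized reads in WT and 38983, 38660.4 and 38044 in RORγtN275D. These libraries did not overlap either, and the log2 fold change was 0.25 (SE 0.03, adjusted p = 5.27e-06 from limma).

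Most of the other glycolytic genes rose by small amounts. *Gapdh*, which makes NADH at the glyceraldehyde 3-phosphate step and is often used as a reference gene, had 168134.5, 167634.5 and 166648 normalized reads in WT and 187390.0, 186754 and 186035 in RORγtN275D. The mutant libraries were all higher, and the log2 fold change was 0.16 (SE 0.03, adjusted p = 2.94e-04 from limma). *Gapdh* alone held 28.3% ± 0.217 of glycolytic reads in WT and 28.8% ± 0.145 in RORγtN275D. *Pkm*, the pyruvate kinase gene, had 99115, 98846 and 99774 normalized reads in WT and 110207, 107734 and 109435 in RORγtN275D. All 3 mutant libraries were above all 3 WT libraries, and the log2 fold change was 0.14 (SE 0.03, adjusted p = 0.00106 from limma). Both calls were lost under quantile normalization, where the log2 fold change of each was 0, since that scaling gives the most abundant genes of every library the same values. *Gpi1* (0.23), *Tpi1* (0.19) and *Pgk1* (0.18), which isomerize sugar phosphates or make ATP, were also called higher (adjusted p between 2.56e-05 and 1.56e-04 from limma), and *Pgam1* was not called, with a log2 fold change of 0.05 (SE 0.03, adjusted p = 0.248 from limma).

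Enolase makes phosphoenolpyruvate, and all 3 of its genes were called higher by small margins. *Eno1*, the main form, had 76325, 80489.9 and 79982 normalized reads in WT and 86150.3, 83641 and 84677 in RORγtN275D. The genotypes did not overlap, though the lowest mutant library was close to the highest WT library, and the log2 fold change was 0.10 (SE 0.03, adjusted p = 0.0124 from limma). *Eno2* had 239, 218 and 259 normalized reads in WT and 289.5, 274.9 and 279.5 in RORγtN275D, with a log2 fold change of 0.24 (SE 0.08, adjusted p = 0.0205 from limma). *Eno3*, known from muscle, had 268.5, 239 and 254 normalized reads in WT and 313.5, 316 and 282 in RORγtN275D, with a log2 fold change of 0.26 (SE 0.08, adjusted p = 0.0109 from limma). In both scarce forms the mutant libraries lay above the WT libraries. None of the 3 calls was firm: *Eno1* lost its call without WT replicate 1 (adjusted p = 0.067 from limma) or RORγtN275D replicate 1 (0.0617), *Eno2* without WT replicate 2 (0.0989) or RORγtN275D replicates 1 (0.0756) or 3 (0.0514), and *Eno3* without RORγtN275D replicate 2 (0.0537).

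Neither of the lactate dehydrogenase genes was called higher. *Ldha*, whose product favours lactate formation, had 80907, 83532 and 77746 normalized reads in WT and 82222, 80398 and 80101 in RORγtN275D. The WT libraries spanned the mutant ones, and the log2 fold change was 0.00 (SE 0.03, adjusted p = 0.934 from limma). *Ldhb* (gene ID 16832, chr6:142490249-142507957), the form that favours pyruvate, had 677, 619 and 594 normalized reads in WT and 504, 493 and 467 in RORγtN275D. Each mutant library was lower than each WT library, with a log2 fold change of -0.37 (SE 0.06, adjusted p = 1.59e-04 from limma). Several of these abundant genes, among them *Gapdh*, *Eno1*, *Pgk1*, *Ldha* and *Aldoa*, have near-identical pseudogene copies that could share reads, and how the authors counted such reads is not given in the sources used here.

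Because the study asks about HIF-1α beside RORγt, the 250 bases before the RefSeq transcript start (GRCm38.p6) were searched for the core of its response element, ACGTG, on both strands, so that a palindromic CACGTG counts on each. A window was available for 44 of the 46 genes, and *Idh3a* and *Me2* had none. The core was present for 13 of 44 members (29.5%), against 18.5% of 27025 genes, and for 8 of 19 glycolytic genes, 0 of 7 pentose phosphate genes, 3 of 13 TCA genes and 2 of 5 entry and exit genes. The 27025 genes are all those with a window, whether or not they were expressed here. A gene counted if any of its windows matched, with 63 windows for the 44 members and 32851 for the 27025 genes. The 2 shares are thus not a like comparison. By direction it was found for 5 of 17 genes called higher, 3 of 14 called lower and 4 of 12 not called. The ROR core element AGGTCA, searched in the same way, was present for 11 of 44 members, against 15.8% of the same 27025 genes, and for 6 of the 17 higher, 4 of the 14 lower and 1 of the 12 not called. A match in such a short string is a description of the window and not a binding site. The windows of 4 genes, chosen after values were seen as examples of each direction, follow. *Hk2* fell and its window has 2 matches, *Pfkp* rose and has 0, and *Pgk1* rose and has 2. *Ldha* was not called and has 5 in the window printed and 0 in its other window, at another start. The windows of *Pfkp* and *Ldha* lie inside the spans of these genes, so the bases before their outermost ends were not searched. Each window printed runs 5′ to 3′ toward the start, with the core or its reverse complement in capitals.
*Hk2*, chr6:82774455-82774704, minus strand: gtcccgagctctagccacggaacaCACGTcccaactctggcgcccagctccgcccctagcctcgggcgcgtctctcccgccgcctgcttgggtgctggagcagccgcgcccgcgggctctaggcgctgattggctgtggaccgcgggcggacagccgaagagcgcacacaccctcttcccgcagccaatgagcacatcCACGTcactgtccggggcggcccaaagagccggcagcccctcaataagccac
*Pfkp*, chr13:6648772-6649021, minus strand: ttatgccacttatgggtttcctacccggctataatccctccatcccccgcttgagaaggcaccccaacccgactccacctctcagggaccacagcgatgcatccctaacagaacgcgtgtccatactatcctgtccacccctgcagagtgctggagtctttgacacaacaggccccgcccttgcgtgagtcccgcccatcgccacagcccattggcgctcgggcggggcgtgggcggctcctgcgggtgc
*Ldha*, chr7:46845554-46845803, plus strand: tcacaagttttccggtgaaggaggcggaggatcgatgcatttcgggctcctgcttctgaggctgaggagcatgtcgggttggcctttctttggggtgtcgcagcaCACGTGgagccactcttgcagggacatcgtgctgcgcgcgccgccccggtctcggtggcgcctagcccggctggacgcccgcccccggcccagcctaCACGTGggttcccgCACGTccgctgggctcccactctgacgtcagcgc
*Pgk1*, chrX:106186850-106187099, plus strand: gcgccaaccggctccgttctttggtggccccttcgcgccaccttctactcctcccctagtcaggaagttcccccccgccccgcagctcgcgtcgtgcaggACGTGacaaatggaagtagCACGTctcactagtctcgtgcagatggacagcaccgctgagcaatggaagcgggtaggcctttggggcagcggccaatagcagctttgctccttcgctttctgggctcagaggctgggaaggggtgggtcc

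Of the 7 pentose phosphate genes, 1 was called higher and 3 lower, a called share of 57.1% beside 50.9% of all genes. In the oxidative branch, *G6pdx*, which encodes the entry enzyme glucose 6-phosphate dehydrogenase, was not called, with a log2 fold change of 0.03 (SE 0.04, adjusted p = 0.501 from limma). *Pgls*, the lactonase of the second step, had 863, 810.0 and 905 normalized reads in WT and 1008, 935 and 999 in RORγtN275D. The mutant libraries were above the WT libraries, and its log2 fold change of 0.19 (SE 0.05, adjusted p = 0.00833 from limma) was the only call upward among the 7 genes. *Pgd*, which yields the second NADPH and ribulose 5-phosphate, had 6454, 6322 and 6669 normalized reads in WT and 5617, 5806.5 and 5454 in RORγtN275D. It was lower in all 3 mutant libraries, with a log2 fold change of -0.20 (SE 0.04, adjusted p = 2.68e-04 from limma).

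In the non-oxidative branch, *Rpia* (gene ID 19895, chr6:70765720-70792175), the isomerase that forms ribose 5-phosphate, fell most. It had 852, 812 and 871 normalized reads in WT and 624, 672 and 607 in RORγtN275D. The mutant libraries were all well below the WT libraries, with a log2 fold change of -0.41 (SE 0.06, adjusted p = 1.67e-05 from limma). *Taldo1*, transaldolase, had 2508, 2447 and 2492 normalized reads in WT and 2320.1, 2243 and 2125 in RORγtN275D, without overlap and with a log2 fold change of -0.16 (SE 0.04, adjusted p = 0.00602 from limma). For *Rpe*, the epimerase, and *Tkt*, transketolase, the log2 fold changes of -0.11 (SE 0.05) and -0.05 (SE 0.03) were not called. The *Tkt* libraries nevertheless did not overlap, with 12749.7, 12701 and 12902 normalized reads in WT and 12605.5, 12283 and 12132 in RORγtN275D.

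In the TCA cycle the calls downward fell on isocitrate dehydrogenase, the 2-oxoglutarate dehydrogenase complex, fumarase and malate dehydrogenase, and not on citrate synthase. *Cs*, the entry enzyme, was not called, with a log2 fold change of -0.02 (SE 0.03, adjusted p = 0.608 from limma). *Idh1* (gene ID 15926, chr1:65158616-65186479), the cytosolic NADP-dependent isocitrate dehydrogenase, fell most of the 45 genes. It had 612, 655 and 597 normalized reads in WT and 332, 344 and 374 in RORγtN275D. The highest mutant library was well below the lowest WT library, and the level in the mutant was 0.564 of that in WT, with a log2 fold change of -0.83 (SE 0.07, adjusted p = 4.48e-08 from limma). Its mitochondrial counterpart *Idh2* had 844, 723 and 772 normalized reads in WT and 743, 756 and 760.4 in RORγtN275D, the libraries overlapped, and the log2 fold change was -0.05 (SE 0.06, adjusted p = 0.53 from limma).

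The NAD-dependent isocitrate dehydrogenase of the cycle proper is built from 3 kinds of subunit. *Idh3a*, the catalytic one, had 2390.1, 2240.4 and 2232 normalized reads in WT and 1997, 1938 and 1965 in RORγtN275D. *Idh3b* had 2645, 2621 and 2771 normalized reads in WT and 2209, 2289 and 2220.1 in RORγtN275D. Both were lower in each mutant library, with log2 fold changes of -0.22 (SE 0.04, adjusted p = 4.77e-04 from limma) and -0.26 (SE 0.04, adjusted p = 6.50e-05 from limma). *Idh3g* was not called at -0.04 (SE 0.05), and its WT replicate 3 stood above the other 5 libraries at 2372 normalized reads.

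The next complex joins *Ogdh*, the decarboxylating subunit, with *Dlst*, the succinyltransferase. *Ogdh* had 4574, 4809.6 and 4920.2 normalized reads in WT and 4130.0, 4103 and 4143 in RORγtN275D. *Dlst* (gene ID 78920, chr12:85110822-85134091) had 5236, 5196 and 5412 normalized reads in WT and 4376.5, 4412 and 4266 in RORγtN275D. Mutant values of both were lower and tightly grouped, with log2 fold changes of -0.21 (SE 0.04, adjusted p = 2.54e-04 from limma) and -0.28 (SE 0.04, adjusted p = 8.88e-06 from limma). Of succinyl-CoA ligase, neither *Suclg1*, the alpha subunit (-0.05), nor the beta subunits of its GTP and ATP forms, *Suclg2* (0.03) and *Sucla2* (-0.08), were called. *Suclg2* had 1089, 1144 and 1081.5 normalized reads in WT and 1087, 1159 and 1139 in RORγtN275D. *Sucla2* had 1092, 1101.5 and 976 normalized reads in WT and 936, 1053 and 1003 in RORγtN275D, and in both the libraries overlapped. *Fh1*, fumarase, was called lower at -0.17 (SE 0.05, adjusted p = 0.0057 from limma).

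Malate dehydrogenase again split by compartment. *Mdh1* (gene ID 17449, chr11:21556692-21571934), the cytosolic form, had 2827, 2756 and 2657 normalized reads in WT and 3057, 3058 and 3284 in RORγtN275D. It was the only one of the 14 TCA genes called higher, without overlap, with a log2 fold change of 0.19 (SE 0.04, adjusted p = 0.00148 from limma). *Mdh2*, the mitochondrial form that closes the cycle, had 8396.5, 8306 and 9391 normalized reads in WT and 7990.4, 7788 and 7321 in RORγtN275D. The mutant libraries were all lower, with a log2 fold change of -0.17 (SE 0.05, adjusted p = 0.00526 from limma), and WT replicate 3 stood above the rest of its group.

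Of the enzymes that feed the cycle, *Got1* (gene ID 14718, chr19:43499752-43524605), the cytosolic aspartate aminotransferase, rose most. It had 3838, 3629 and 3852 normalized reads in WT and 4903, 4734 and 4579 in RORγtN275D. Every mutant library exceeded every WT library, with a log2 fold change of 0.33 (SE 0.04, adjusted p = 4.79e-06 from limma), and it was the only gene of these 6 called at 1.2-fold or more. The mitochondrial *Got2* had 9066, 9193 and 9273.5 normalized reads in WT and 8233, 8137 and 7895 in RORγtN275D. It was lower in each mutant library, with a log2 fold change of -0.18 (SE 0.03, adjusted p = 2.82e-04 from limma). *Glud1*, glutamate dehydrogenase, which turns glutamate into 2-oxoglutarate, had 4983, 4947 and 4752 normalized reads in WT and 5631, 5492.5 and 5620.3 in RORγtN275D. Its mutant libraries were all higher, with a log2 fold change of 0.19 (SE 0.04, adjusted p = 3.53e-04 from limma).

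*Acly*, which splits exported citrate to supply acetyl-CoA for lipid synthesis, had 13795, 13776 and 14109 normalized reads in WT and 12151, 12608 and 12565 in RORγtN275D. All mutant libraries were below all WT libraries, with a log2 fold change of -0.16 (SE 0.03, adjusted p = 6.91e-04 from limma). *Me2*, the mitochondrial NAD-dependent malic enzyme, had 2557, 2453 and 2347 normalized reads in WT and 2634.5, 2588 and 2601 in RORγtN275D. These did not overlap, but the log2 fold change of 0.09 (SE 0.04, adjusted p = 0.0838 from limma) was not called. *Pcx*, pyruvate carboxylase, which forms oxaloacetate from pyruvate, was not called either at -0.07 (SE 0.06).

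Ratios between isozyme genes were then taken within each library, since a factor applied to a whole library nearly cancels in them. Of 12 pairs, 11 were used, *Hk3* being too low for the other. The genotypes did not overlap in 9 of the 11, where 57.7% of single genes did not. These shares are not alike, since a ratio can separate when either of its genes moves. No share over pairs of other genes was computed. With 3 libraries against 3, an exact two-sided permutation test cannot give a p under 0.1, which was the value for all 9 pairs (0.122 after Benjamini-Hochberg adjustment over the 11), so no ratio could pass 0.05. The log2 ratio of *Hk1* to *Hk2* was -1.08, -0.997 and -1.01 in WT and -0.15, -0.16 and -0.16 in RORγtN275D. All 3 mutant libraries were thus near parity in reads while WT libraries held more *Hk2*, a difference of 0.87 (SE 0.03). The log2 ratio of *Pfkp* to *Pfkl* was -0.17, -0.21 and -0.29 in WT and 0.50, 0.57 and 0.66 in RORγtN275D, so that it changed sign between genotypes, with a difference of 0.80 (SE 0.06). *Pfkm* to *Pfkl* (0.46, SE 0.07) and *Aldoc* to *Aldoa* (0.62, SE 0.06) also differed upward without overlap.

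The pairs that separate cytosolic from mitochondrial enzymes did not share a direction. The log2 ratio of *Got1* to *Got2* was -1.24, -1.34 and -1.27 in WT and -0.75, -0.78 and -0.79 in RORγtN275D, a difference of 0.51 (SE 0.03). That of *Mdh1* to *Mdh2* was -1.57, -1.59 and -1.82 in WT and -1.39, -1.35 and -1.16 in RORγtN275D, a difference of 0.36 (SE 0.11). Both thus moved toward the cytosolic gene of the malate-aspartate shuttle, a route that carries reducing equivalents into mitochondria. The log2 ratio of *Idh1* to *Idh2* was -0.46, -0.14 and -0.37 in WT and -1.16, -1.13 and -1.02 in RORγtN275D, and its difference of -0.78 (SE 0.10) went toward the mitochondrial gene. The differences were -0.37 (SE 0.06) for *Ldhb* to *Ldha* and 0.13 (SE 0.08) for *Eno2* to *Eno1*, both without overlap. *Eno3* to *Eno1* (0.15, SE 0.09) and *Sucla2* to *Suclg2* (-0.11, SE 0.05) overlapped (exact permutation p = 0.2 each). The size of both enolase differences depended on single libraries. Without WT replicate 2 they were 0.0561 for *Eno2* to *Eno1* and 0.0969 for *Eno3* to *Eno1*, and without WT replicate 1 they were 0.162 and 0.219.

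**Figure D3:**
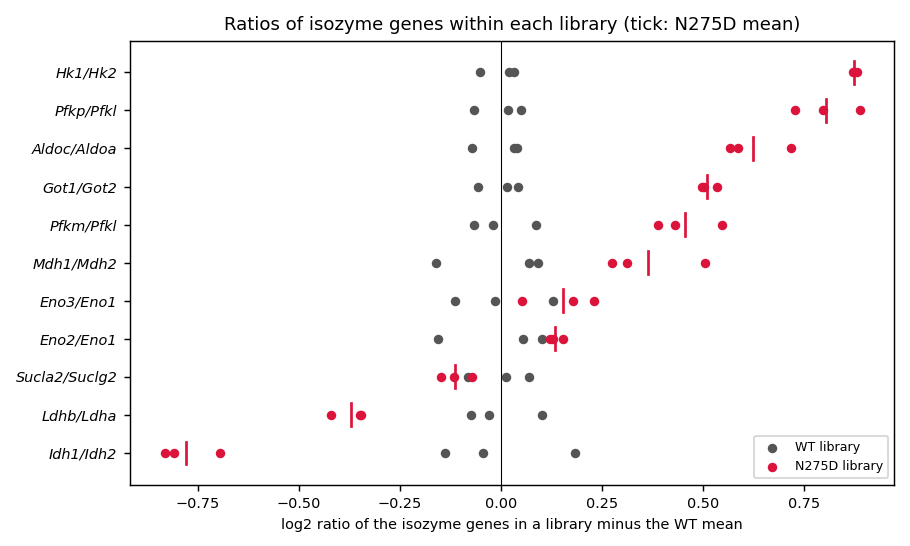
The log2 ratio of 2 isozyme genes in each library minus the WT mean of that ratio (x axis), for 11 pairs (y axis), with grey points for the 3 WT libraries, red points for the 3 RORγtN275D libraries and a red tick at their mean. The red points of *Hk1*/*Hk2* and *Pfkp*/*Pfkl* sit around 0.87 and 0.80, those of *Idh1*/*Idh2* around -0.78, and those of *Eno3*/*Eno1* and *Sucla2*/*Suclg2* overlap the grey ones.

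Divided by exon length, the same reads give the make-up of each family. Of hexokinase reads per kilobase, *Hk1* made up 36.8% ± 0.731 in WT and 51.7% ± 0.0827 in RORγtN275D (SD, n = 3 each), so *Hk2* led in WT and *Hk1* narrowly in the mutant. Of the phosphofructokinase family, *Pfkp* made up 41.2% ± 1.08 in WT and 54.5% ± 1.27 in RORγtN275D and *Pfkl* 55.5% ± 0.877 in WT and 42% ± 1.35 in RORγtN275D. *Pfkm* was the minor form at 3.33% ± 0.228 in WT and 3.46% ± 0.0884 in RORγtN275D. The family totals did not move alike: the summed level per kilobase in RORγtN275D was 0.917 of WT for hexokinase, 1.22 for phosphofructokinase and 1.19 for aldolase. Which gene leads depends on the length used. With the exons of every annotated transcript in place of those paired with a curated RefSeq mRNA, *Hk1* made up 25.5% in WT and 38.6% in RORγtN275D, so that *Hk2* led in both, and *Pfkl* still led *Pfkp* in the mutant, at 53.3% against 39.7%, with *Pfkm* at 6.34% in WT and 7.05% in the mutant. The family totals with that length were 0.851 of WT for hexokinase, 1.14 for phosphofructokinase and 1.19 for aldolase. The direction of each shift in share given here was the same with either length, which adds little. A gene's length is the same in both genotypes, so it cannot turn the direction of a shift between 2 genes. The shares of *Pfkm* overlapped between the genotypes.

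For aldolase and lactate dehydrogenase the minor gene stayed minor. Within its family, *Aldoc* made up 0.584% ± 0.025 in WT and 0.899% ± 0.0512 in RORγtN275D. *Ldhb* made up 1.12% ± 0.0709 in WT and 0.869% ± 0.0245 in RORγtN275D. The share of *Idh1* within the NADP-dependent isocitrate dehydrogenases was 36% ± 2.64 in WT and 24.7% ± 0.951 in RORγtN275D, and the family total in RORγtN275D was 0.821 of WT. *Mdh1* held 17.9% ± 1.39 in WT and 21.8% ± 1.47 in RORγtN275D, with a family total of 0.931 of WT. *Got1* held 33.6% ± 0.804 in WT and 41.9% ± 0.35 in RORγtN275D, while the family total was 1.01 of WT. With the exons of every transcript *Mdh1* held 30.5% in WT and 36.1% in the mutant, and *Got1* 43.9% and 52.7%, so that *Got1* led in the mutant.

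**Figure D4:**
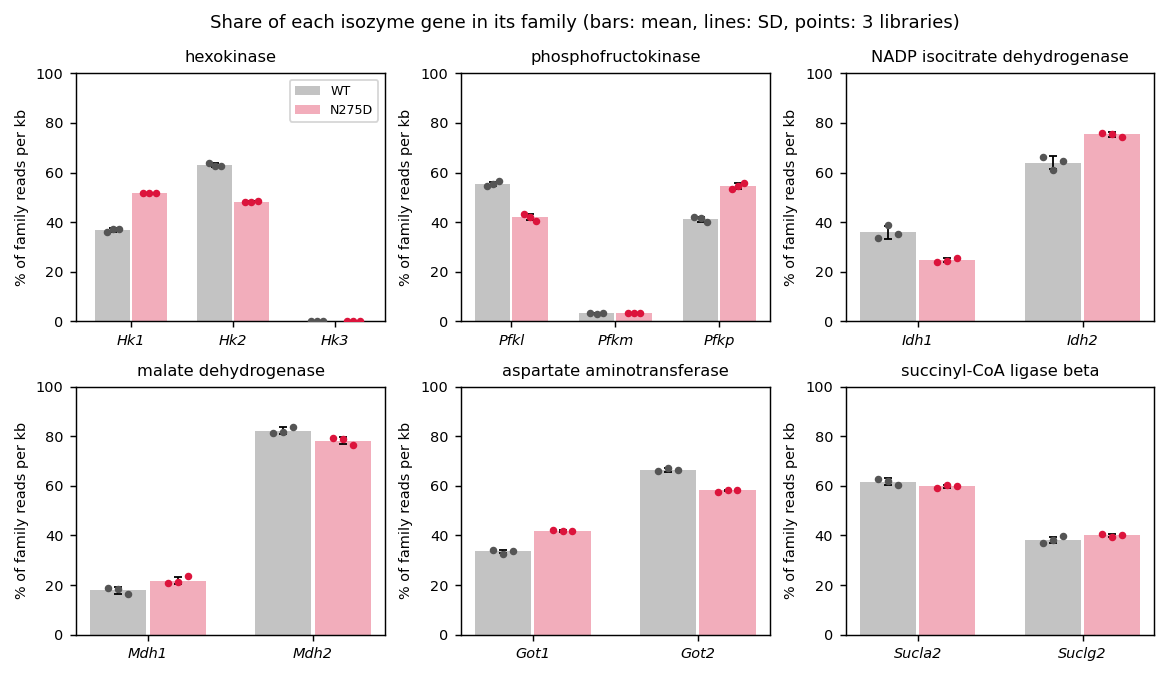
The share of each isozyme gene in the normalized reads per kilobase of its family (y axis, percent), for 6 families, with grey bars for WT and red bars for RORγtN275D, bars at the mean of 3 libraries, lines for the SD and 1 point per library. *Hk1* goes from 36.8% to 51.7%, *Pfkp* from 41.2% to 54.5% and *Got1* from 33.6% to 41.9%, while *Idh1* drops from 36.0% to 24.7%.

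Outside the 46 genes, a further list of 42 enzymes and carriers of the same pathways was examined. Of these 35 were in the table and 33 tested, with 8 called higher and 12 lower, and a median log2 fold change of -0.07. The called share was 60.6%, beside 50.9% of all genes, of which 24.7% were called higher and 26.1% lower. *Me1*, the cytosolic malic enzyme that makes NADPH, had 16.1, 13.1 and 12.8 normalized reads in WT and 42.9, 42.1 and 44.4 in RORγtN275D, and was the only one past 2-fold, with a log2 fold change of 1.56 (SE 0.21, adjusted p = 1.21e-05 from limma). *Pck2*, the mitochondrial phosphoenolpyruvate carboxykinase, had 758, 723 and 772 normalized reads in WT and 1474.5, 1521 and 1495 in RORγtN275D, with a log2 fold change of 0.99 (SE 0.05, adjusted p = 9.29e-11 from limma). *Gpt2*, the mitochondrial alanine aminotransferase, had a log2 fold change of 0.71 (SE 0.06, adjusted p = 1.91e-07 from limma).

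The largest falls of that list were *Galm* (-0.55), the aldose mutarotase, *Slc25a13* (-0.44), a mitochondrial aspartate-glutamate carrier, *Sdhd* (-0.28) and *Prps1* (-0.24), which makes phosphoribosyl pyrophosphate from ribose 5-phosphate. All 4 subunits of succinate dehydrogenase, the TCA enzyme that sits in the respiratory chain, were called lower, where 26.1% of all genes were. Their log2 fold changes were -0.17 for *Sdha*, -0.14 for *Sdhb*, -0.15 for *Sdhc* and -0.28 for *Sdhd*. *Dld*, the shared subunit of the 2-oxoacid dehydrogenases, was not called at 0.06.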

How the data were processed

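Poly(A) RNA-seq libraries of 3 WT and 3 RORγtN275D Th17 samples were grouped by their labels. Per the study's methods, reads were trimmed, aligned to mm10 with STAR and counted with featureCounts, with versions not given in the sources used here. The deposited signal values are the authors' counts per gene multiplied by 1 factor per library. Values were whole multiples of that factor, within 1e-06, in 100% of entries of each library, so whole reads could be recovered (17659035 to 18510878 per library). All columns of single libraries were used. The authors' own log2 fold changes and q-values in the deposited table were not used.

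Members and gene lists were chosen with earlier results of these data known, so counts over them are descriptions. Genes with a mean of at least 10 were compared in limma (version 3.58.1, R 4.3.3) with a trended prior (12 prior degrees of freedom) on log2(normalized reads + 1), without a block, and p-values were adjusted over all 11908 genes by Benjamini-Hochberg. Genes named with every library's value are the 5 members with the largest called rise and fall of each pathway, those of isozyme pairs, *Gapdh*, members whose call an alternative removed and *Hk3*, and other members were added to account for all 46. Of the other pathway genes, the 4 with the largest called rise and fall are named, except for an item not reported here. Log2 isozyme ratios were compared by exact two-sided permutation. Levels per kilobase used exons of GENCODE M21 transcripts paired with a curated RefSeq mRNA, and coordinates and windows came from RefSeq (GRCm38.p6, the build mm10). Replicates differed by a median chi-square of 1.32 to 3.05 times counting noise, that is, by more than counting noise alone. This does not show that they were separate animals or cultures. Each library was counted as 1 replicate. The median SD within a genotype was 0.0776 (log2). Same-numbered libraries did not deviate together. The procedure was tested on simulated data with 200 genes changed by 2-fold or more, of which 198 were called, with 14 unchanged genes called of 11904. No member changed that much, so the simulation does not show how often changes as small as theirs are called. It also changed a far smaller part of the genes than was called in these data. Alternatives were other pseudocounts (0.1 and 10), filters, scalings and priors, library weights, a replicate block, each library left out, count tests on the recovered reads in edgeR (4.0.16) and DESeq2 (1.42.0), and minimum folds of 1.2 and 2.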

Additional observations from a re-analysis of the deposited data

How the results depend on the processing

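Over 17 alternatives without a minimum fold, 15 to 18 of the 45 enzyme genes were called higher and 13 to 17 lower, no log2 fold change of a called gene reversed, and 24 called genes kept their call in all. Besides the losses given above, *Pfkl* lost its call under quantile normalization (adjusted p = 0.0862) and without a trended prior (0.0846), *Eno1* with every gene above a mean of 0 (0.0642) and without the trend (0.0835), *Eno2* under quantile normalization (0.0938) and in DESeq2 (0.0721), *Taldo1* under quantile normalization (0.0812) and *Mdh2* without the trend (0.0722), with limma where no other tool is named. Calls were gained by *Pgam1* (0.0281), *Rpe* (0.0418) and *Sucla2* (0.023) without WT replicate 3, *Rpe* with library weights (0.0311) or without RORγtN275D replicate 3 (0.0423), and *Me2* under quantile normalization (0.00604) or without WT replicate 1 (0.0413).

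Leaving out each library in turn gave 15 to 18 higher and 15 to 17 lower members, and every isozyme ratio difference kept its sign, though the 2 of enolase shrank without WT replicate 2 (above). Same-numbered libraries had correlations of their deviations of -0.0455, 0.0407 and -0.0828, so the numbers were not taken as pairs. With the replicate number as a block, 17 members were higher and 15 lower, and 2805 and 2922 of all genes. At a minimum of 2-fold, limma called 0 members of any pathway in either direction and 325 of all genes higher and 102 lower, which moved the higher share of calls from 48.7% to 76.1%. At 1.2-fold it called 5 members higher and 5 lower (glycolysis 4 higher and 2 lower, pentose phosphate 0 and 1, TCA 0 and 2, entry and exit 1 and 0) and 2020 of all genes higher and 1546 lower. The shift of the all-gene median stayed within 0.1 under each scaling. With 3 libraries a genotype, small differences such as those of *Tkt* and *Me2* are not settled by a missed call.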
